A study of Rattus norvegicus with 6 samples.

Results

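The genes of the oligodendrocyte lineage and of myelin were measured in rat organotypic hippocampal cultures, in which slices of hippocampus survive outside the animal with their local circuits and their glia. The list holds 34 genes, chosen by name as known markers of the lineage or components of myelin, and every probe set whose single gene symbol in the platform annotation was on the list was taken. In this way 45 of the 31099 probe sets of the array were found, which belong to 31 of the 34 genes, while the array measures 14218 genes with a single symbol in all. Tf, the iron carrier transferrin, is named only on probe sets that carry a second symbol, and for Gpr17 and Sox8 the annotation used here names no probe set, so that these 3 genes have no value. The study treated 3 samples for 90 min with 20 µM gabazine, an antagonist of the GABA-A receptor that removes most fast inhibition, and left 3 samples untreated as controls. Each replica came from 2 Wistar littermates of postnatal day 4 by the labels, whose cultures were divided between gabazine and control, so that the arrays of a replica form a pair. A value is the log2 intensity that the authors computed with Robust Multi-array Average (RMA), and the log2 ratio of a pair is its gabazine array minus its control array. The mean of the 3 ratios is the log2 fold change, given with its standard error (SE). All probe sets entered 1 limma fit that kept the pair as a block, with Benjamini-Hochberg adjustment of the p-values over the whole array. The samples are bulk tissue, in which fewer cells of a type and less RNA per cell cannot be told apart. Both arrays of a pair held identical values for 16.1%, 24.1% and 25.7% of all probe sets in pairs 1, 2 and 3, the cause of which was not tested, and a ratio of 0.00 can be such a tie. Such ties in at least 1 pair occurred on 14 of the 45 member probe sets, against 47.4% of all probe sets.

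Oligodendrocytes wrap axons in myelin, a stack of membrane that is rich in lipid and in a small number of abundant proteins, which speeds the conduction of action potentials. They arise from dividing progenitors, which carry the receptor Pdgfra and the proteoglycan Cspg4 and which receive synapses from neurons, and pass through a premyelinating stage before they switch on the genes of the sheath. In the rat hippocampus most of this maturation takes place after birth, and the activity of neurons is known to influence it. Most members were bright on these arrays. Of the 31 genes, taken on the brightest probe set of each, 26 or 27 lay above the median of all probe sets on every array, and 14 lay above the upper quartile on all 6 arrays, among them Mbp, Cnp, Mobp, Cldn11, Olig1, Pdgfra and Ptprz1. The probe sets of Ermn, Olig2 and Cspg4 lay below the median on all 6 arrays. These are readings of brightness against the array, since the probes of different genes bind with different strength.

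After gabazine, no member passed the adjusted threshold, and the values of most members of the myelin sheath lay a little above those of the controls. At an adjusted p under 0.05 limma called 0 of the 45 member probe sets, with 0% of the whole array called in either direction, and no member had an adjusted p below 0.747. The smallest adjusted p of limma over the whole array was 0.467. Egr2, which is not a member and had log2 ratios of 2.34, 2.12 and 2.41, also had an adjusted p of 0.747 in limma. The lack of calls thus says little about the members. At an unadjusted p under 0.05 there were 4 member probe sets on the higher side, of Mog, Mbp, Car2 and Qdpr, and 0 on the lower side, against 1.84% of all probe sets higher and 2.68% lower. On the brightest probe set, 11 of the 31 genes stood above control in all 3 pairs, against 7.79% of all genes, and 1 stood below control in all 3 pairs, against 10.8% of all genes. With each array centred on its median, 9 stood above control in all 3 pairs, and the share of all genes was not computed there. The mean of the 3 pairs was above 0 for 24 of the 31 genes, against 46.4% of all genes. The median log2 ratio over the 31 genes was 0.16, with 0.04, 0.24 and 0.02 in pairs 1, 2 and 3, and the median over all genes was -0.01. The difference was therefore largest in pair 2, where 25 of the 31 genes were above control, 2 below and 4 identical, against 34.3% of all genes above control in that pair. A gene with a tie cannot count as above or below control in all pairs, and ties were rarer among the members than over the whole array. Of the 4367 genes above the upper quartile on all arrays, 10.8% were above control in all 3 pairs and 44.1% in pair 2, where their median log2 ratio was 0.00, against 5 of the 14 members of that brightness in all 3 pairs. Other lists also stood high in this pair, with a median log2 ratio of 0.67 for 10 meningeal and fibroblast markers and of 0.40 for 10 markers of excitatory neurons, and their part in the result was not tested. With 3 pairs, an exact sign-flip test of a single value cannot give a p below 0.25.

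**Figure D1:**
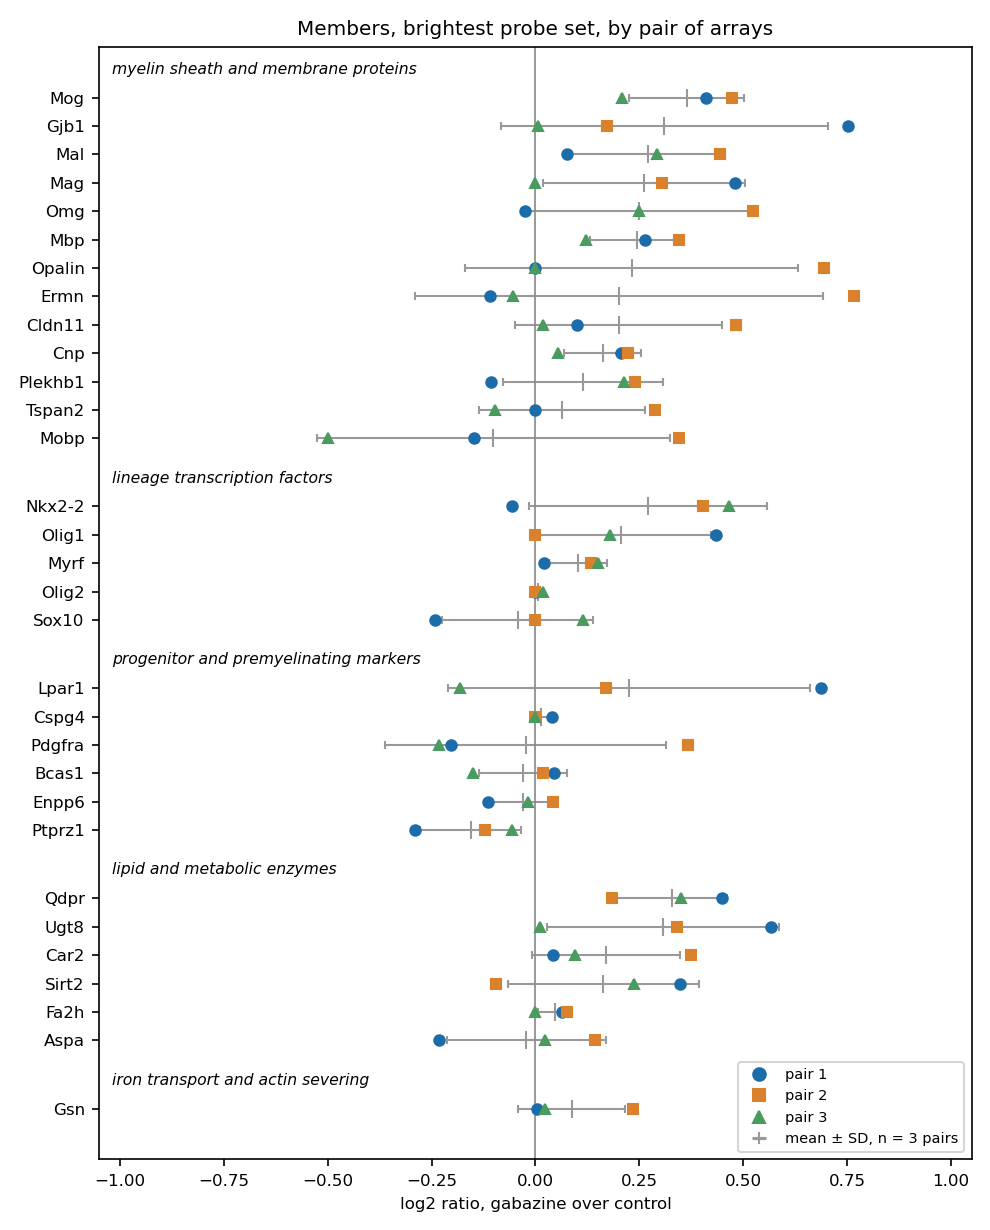
Log2 ratios (gabazine minus control) of the 31 genes, each on its brightest probe set and grouped by role, with 1 coloured point per pair and grey marks for the mean and its SD over the 3 pairs. Mog and Qdpr have all 3 points above 0, Ptprz1 has all 3 below 0, and no mean exceeds 0.36 in size.

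Of the 13 proteins of the sheath, 12 had a mean log2 ratio above 0 and 6 were above control in all 3 pairs. Mog, a protein on the outermost lamella of myelin and a target of autoimmune attack, had the largest mean of all members. Its log2 intensity was 10.34, 9.14 and 9.51 in gabazine samples 1, 2 and 3, against 9.93, 8.67 and 9.30 in the control samples of the same replicas. The gabazine value was the higher one in every pair, although the ranges of the groups overlapped because the replicas differed from each other. The log2 fold change was 0.36 (SE 0.07, 3 pairs), which is 1.29-fold, with an unadjusted p of 0.0158 and an adjusted p of 0.747 in limma. Mbp, the basic protein that holds the cytoplasmic faces of myelin together, was the brightest member. Its brightest probe set had 14.55, 14.02 and 13.82 in gabazine samples 1, 2 and 3, against 14.29, 13.68 and 13.70 in the controls. It too was above control in all 3 pairs, with a log2 fold change of 0.24 (SE 0.06) and an unadjusted p of 0.0294 in limma, and its other probe sets are described further below. Cnp, an enzyme bound to the myelin membrane and an early sign of commitment to myelination, had a log2 fold change of 0.16 (SE 0.05), and Mal, a proteolipid of membrane traffic, had 0.27 (SE 0.09). Both stood above control in all 3 pairs. Cldn11, the claudin that seals the lamellae and that is also present in the arachnoid, had 0.20 (SE 0.12), with 0.10, 0.48 and 0.02 in pairs 1, 2 and 3.

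In the other proteins of the sheath the pairs differed more from each other. Gjb1, a connexin of gap junctions, had 0.75, 0.17 and 0.01 as its log2 ratios by pair. Its log2 fold change of 0.31 (SE 0.19) was 0.09 without pair 1. Opalin, a membrane glycoprotein of mature oligodendrocytes, stood at 0.69 in pair 2 and was identical on both arrays of pairs 1 and 3. Ermn, which binds actin in the outer myelin loops, had 0.77 in pair 2 on its brightest probe set, against -0.11 and -0.05 in pairs 1 and 3. Without pair 2 its log2 fold change of 0.20 became -0.08. A further probe set of Ermn had 0.00, 0.77 and -0.01 in pairs 1, 2 and 3, and another had 0.69, -0.03 and 0.00. Omg, a glycoprotein that inhibits the growth of axons, had -0.03, 0.52 and 0.25. Mag, the adhesion molecule at the inner face of the sheath that contacts the axon, had 0.48 and 0.31 in pairs 1 and 2 and identical values in pair 3, and Plekhb1 and Tspan2, the second a tetraspanin, had log2 fold changes of 0.12 and 0.06. Mobp, a basic protein that compacts myelin, was the only one with a mean below 0 on its brightest probe set. Its log2 ratios by pair were -0.15, 0.35 and -0.50, and the log2 fold change of -0.10 (SE 0.20) became 0.10 without pair 3. The other probe sets of Mobp had log2 fold changes of 0.26 (SE 0.16) and 0.50 (SE 0.36), the first above control in all 3 pairs. The direction of Mobp thus depended on the probe set.

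**Figure D2:**
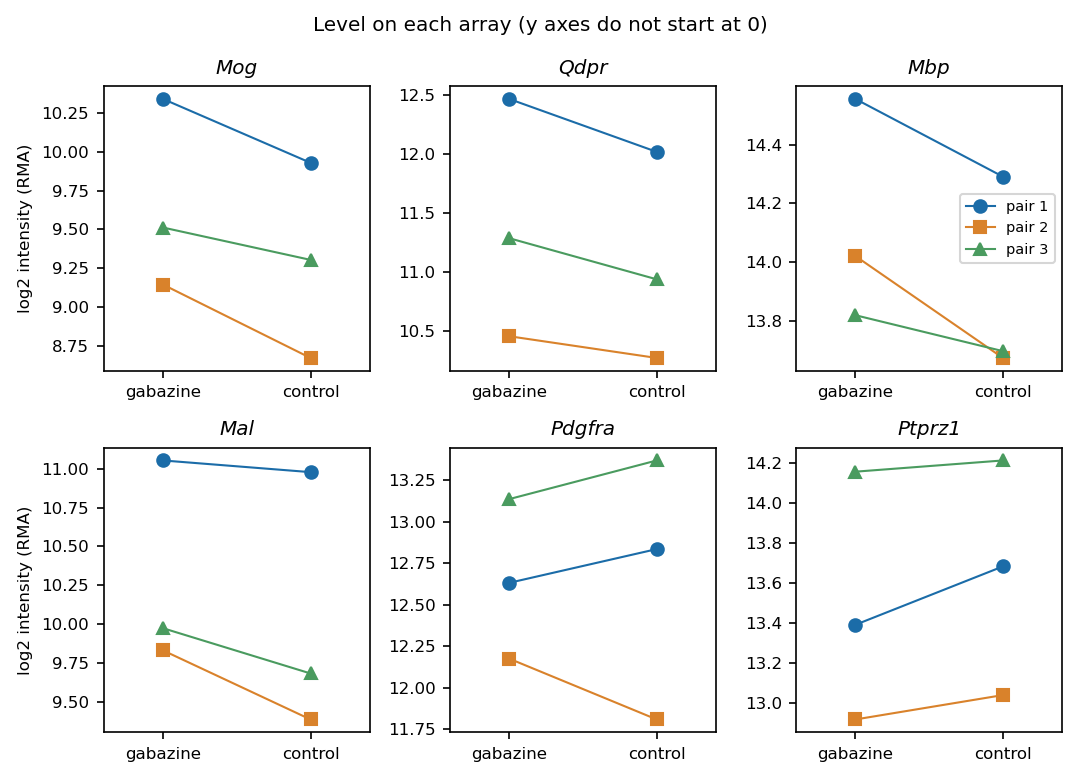
Log2 intensity (RMA) of 6 genes on each array, brightest probe set, with the gabazine array on the left, the control array on the right and 1 line per pair. The lines of Mog, Qdpr, Mbp and Mal lie higher at gabazine in every pair, those of Ptprz1 lie lower, and for each gene the 3 lines together span more than any of them climbs or drops.

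Of the 5 transcription factors of the lineage that were measured, 4 had a mean log2 ratio above 0 and 1 was above control in all 3 pairs. This was Myrf, the factor that switches on the genes of myelin and keeps them on in mature cells, with a log2 fold change of 0.10 (SE 0.04) and ratios of 0.02, 0.13 and 0.15. With each array centred on its median, its gabazine level in pair 1 lay below control, at 1.82 against 1.88. Nkx2-2, a homeodomain factor that times the differentiation of progenitors, had the largest mean of the group. Its log2 intensity was 9.57, 8.53 and 9.97 in gabazine samples 1, 2 and 3, against 9.63, 8.13 and 9.51 in the controls. The ratios of pairs 2 and 3 were alike, at 0.40 and 0.47, and that of pair 1 was -0.06, and the log2 fold change of 0.27 (SE 0.14) had an adjusted p of 0.747 in limma. Olig1 and Olig2 are basic helix-loop-helix factors encoded side by side, of which Olig2 specifies the lineage and Olig1 acts in its maturation. Olig1 had a log2 fold change of 0.21 (SE 0.11) and Olig2 had 0.01 (SE 0.03) on its brightest probe set, with identical values in 2 pairs. The sign of Olig2 turned under each other scaling of the arrays, at a size under 0.02. Sox10, which works with Myrf and is kept throughout the lineage, had 10.10, 9.36 and 10.25 in gabazine samples 1, 2 and 3, against 10.34, 9.36 and 10.14 in the controls, and its log2 fold change was the lowest of the group at -0.04 (SE 0.09).

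Myrf binds DNA at the motif CTGGCAC, and since it and genes of the sheath are measured together here, the windows around the start sites of the members were searched for these letters on both strands. RefSeq (GRCr8) gave such a window, from 250 bases before to 50 after the start, for 24 of the 34 genes. The motif was found in 6 of them, which are 25% of the genes, against 4.75% of all 33469 windows. These were Mag, Cnp, Opalin, Mal, Olig2 and Enpp6, and the share is a description of sequence, for which no binding was measured. The CArG box, the site of the serum response factor that the study followed, was found in 2 of the 24, Nkx2-2 and Aspa, against 1.64% of all windows. The windows of the 4 sheath genes are shown to place the motif, with its letters in capitals in whichever direction it runs, so that GTGCCAG is the motif on the other strand. They lie at chr1:95290995-95291294 (minus strand) for Mag, chr3:135341374-135341673 (minus strand) for Mal, chr1:249858141-249858440 (minus strand) for Opalin and chr10:86011254-86011553 (plus strand) for Cnp, and the motif begins 94, 126, 17 and 124 bases before the start site in this order.
Mag: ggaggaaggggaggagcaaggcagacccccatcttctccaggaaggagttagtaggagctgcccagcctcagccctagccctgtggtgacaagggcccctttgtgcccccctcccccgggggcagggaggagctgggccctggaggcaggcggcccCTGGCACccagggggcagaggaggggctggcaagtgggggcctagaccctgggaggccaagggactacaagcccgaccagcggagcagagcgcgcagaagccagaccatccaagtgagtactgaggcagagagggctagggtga
Mal: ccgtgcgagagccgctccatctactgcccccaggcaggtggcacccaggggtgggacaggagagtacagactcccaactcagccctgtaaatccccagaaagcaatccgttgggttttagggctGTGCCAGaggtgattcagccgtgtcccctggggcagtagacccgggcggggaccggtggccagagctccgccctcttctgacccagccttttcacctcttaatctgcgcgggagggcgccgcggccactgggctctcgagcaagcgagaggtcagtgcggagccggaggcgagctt
Opalin: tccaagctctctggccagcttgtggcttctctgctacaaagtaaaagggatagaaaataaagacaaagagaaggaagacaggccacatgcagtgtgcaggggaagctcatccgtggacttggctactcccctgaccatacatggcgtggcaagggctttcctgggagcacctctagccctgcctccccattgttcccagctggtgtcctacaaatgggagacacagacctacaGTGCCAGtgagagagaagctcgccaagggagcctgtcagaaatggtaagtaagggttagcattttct
Cnp: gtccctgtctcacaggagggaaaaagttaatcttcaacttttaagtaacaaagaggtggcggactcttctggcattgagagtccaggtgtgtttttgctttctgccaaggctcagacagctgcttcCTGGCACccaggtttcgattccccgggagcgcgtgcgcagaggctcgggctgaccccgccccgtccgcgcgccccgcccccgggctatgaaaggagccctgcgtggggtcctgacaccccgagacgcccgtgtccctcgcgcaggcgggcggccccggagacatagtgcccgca
The 6 genes with the motif had log2 fold changes of 0.26 (Mag), 0.27 (Mal), 0.23 (Opalin), 0.16 (Cnp), 0.01 (Olig2) and -0.03 (Enpp6). Mog and Mbp, which had the smallest p of the sheath genes, are not among the 6, and for Mog the table of windows gave none.

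Of the 6 markers of progenitors and of premyelinating cells that were measured, 2 had a mean log2 ratio above 0. Their median log2 ratio was -0.03, beside 0.23 over the 13 sheath genes, and whether the lists differ was not tested. Ptprz1, a receptor phosphatase of the progenitors that astrocytes also carry, was the only member below control in all 3 pairs on its brightest probe set. Its log2 intensity was 13.39, 12.92 and 14.15 in gabazine samples 1, 2 and 3, against 13.68, 13.04 and 14.21 in the controls. The groups overlapped and the log2 fold change was -0.16 (SE 0.06), with an unadjusted p of 0.0962 and an adjusted p of 0.747 in limma. Pdgfra, the receptor through which progenitors are told to divide, had 12.63, 12.17 and 13.14 in gabazine samples 1, 2 and 3, against 12.83, 11.81 and 13.37 in the controls. It was therefore above control in pair 2 and below it in pairs 1 and 3, with a log2 fold change of -0.02 (SE 0.16). Cspg4, the NG2 proteoglycan, had 0.01 (SE 0.03) with identical values in 2 pairs. Bcas1, a marker of cells that begin to form myelin, and Enpp6, an enzyme of choline lipids in newly formed oligodendrocytes, both had -0.03 (SE 0.06 and 0.05). Lpar1, a receptor of lysophosphatidic acid, had the highest mean of the group. Its log2 intensity was 11.10, 10.28 and 10.41 in gabazine samples 1, 2 and 3, against 10.41, 10.11 and 10.60 in the controls. These values are of its brighter probe set, where the difference came from pair 1. The log2 fold change of 0.23 (SE 0.21) became -0.01 without that pair. On the other probe set of Lpar1 the ratios were 0.19, 0.41 and 0.00 in pairs 1, 2 and 3, with a log2 fold change of 0.20 (SE 0.10).

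Among the enzymes, 3 of 6 stood above control in all 3 pairs and none stood below in all 3. Qdpr, which regenerates the cofactor tetrahydrobiopterin and is abundant in oligodendrocytes, had the highest mean. Its log2 intensity was 12.47, 10.45 and 11.29 in gabazine samples 1, 2 and 3, against 12.02, 10.27 and 10.94 in the controls. The gabazine value was higher in each pair by 0.45, 0.18 and 0.35, while the samples of replica 1 lay above all others. The log2 fold change was 0.33 (SE 0.07), which is 1.26-fold, with an unadjusted p of 0.0193 and an adjusted p of 0.747 in limma. Ugt8, the transferase that makes galactosylceramide, the typical lipid of myelin, had 0.57, 0.34 and 0.01 as its ratios on its brighter probe set. Its other probe set was near the lower end of the arrays, between 3.51 and 4.34. Car2, a carbonic anhydrase of oligodendrocytes and of the choroid plexus, had 0.17 (SE 0.09) on the brighter probe set. Its other probe set had 10.61, 8.59 and 8.73 in gabazine samples 1, 2 and 3, against 10.31, 8.39 and 8.58 in the controls. Both probe sets were above control in all 3 pairs, and the second had a log2 fold change of 0.22 (SE 0.05) with an unadjusted p of 0.0192 in limma. The choroid plexus marker Ttr, the carrier of thyroid hormone, had 4.59, 0.14 and 0.07 as its log2 ratios by pair, and the 8 measured markers of that tissue had a median of 0.08. Their part in the values of Car2 was not tested.
Sirt2, a deacetylase of tubulin that is enriched in myelin, had a log2 fold change of 0.16 (SE 0.11), Fa2h, which hydroxylates the fatty acids of myelin lipids, had 0.05 (SE 0.03), and Aspa, which splits N-acetylaspartate and so supplies acetate for lipids, had -0.02 (SE 0.10). Aspa had 9.42, 8.73 and 9.65 in gabazine samples 1, 2 and 3, against 9.65, 8.59 and 9.63 in the controls. Gsn, which severs actin filaments, had 12.93, 12.45 and 12.17 in gabazine samples 1, 2 and 3, against 12.93, 12.22 and 12.15 in the controls, and its log2 fold change of 0.09 (SE 0.07) was set mainly by pair 2.

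The probe sets of the same gene disagreed in pair 1. Of the 11 members with more than 1 probe set, all 11 had the widest spread of log2 ratios in that pair, against 76.4% of all 4526 such genes. For Ermn this was close to a tie, with 0.8023 in pair 1 and 0.8005 in pair 2. The median spread of the members was 0.80, 0.24 and 0.07 in the order of the pairs, and over all such genes it was 0.57, 0.16 and 0.15. A log2 ratio above 1 occurred on 5 of the 45 member probe sets in pair 1, against 4.07% of all probe sets, and on 0 in pairs 2 and 3, against 0.685% and 0.318%. These 5 belong to Mbp, Cldn11, Cnp, Mobp and Olig2, and none of them is the brightest probe set of its gene.
On the dimmer probe set of Cldn11 the log2 intensity was 10.39, 7.47 and 7.74 in gabazine samples 1, 2 and 3, against 8.05, 6.95 and 7.41 in the controls. The gabazine sample of replica 1 stood apart from the other 5, and the ratios were 2.34, 0.52 and 0.32, against 0.10, 0.48 and 0.02 on the brighter one. The log2 fold change of 1.06 (SE 0.53) was the largest of any member probe set, with an adjusted p of 0.747 in limma.
On a further probe set of Mbp the log2 intensity was 13.71, 10.12 and 9.73 in gabazine samples 1, 2 and 3, against 11.40, 9.88 and 9.85 in the controls. The ratio of 2.31 in pair 1 met 0.26 and -0.11 on the other probe sets of Mbp in the same pair, and those of pairs 2 and 3 were 0.24 and -0.13.
The third probe set of Mbp had 11.03, 9.81 and 10.54 in gabazine samples 1, 2 and 3, against 11.13, 9.81 and 10.65 in the controls. It was below control in pairs 1 and 3 and identical in pair 2, so that the direction of Mbp depended on the probe set.
Cnp had 11.29, 9.45 and 9.28 on its dimmer probe set in gabazine samples 1, 2 and 3, against 9.79, 9.46 and 9.15 in the controls. Mobp had 11.71, 9.24 and 9.37 on its dimmest probe set in gabazine samples 1, 2 and 3, against 10.47, 8.70 and 9.64 in the controls. Olig2 had 7.86, 5.33 and 5.90 on its dimmer probe set in gabazine samples 1, 2 and 3, against 6.48, 5.33 and 5.90 in the controls. In each of these genes the gabazine sample of replica 1 was the one that lay high, by 1.49, 1.24 and 1.38 over its control for Cnp, Mobp and Olig2. The second probe set of Ptprz1 lay below its control in that pair, with a log2 ratio of -0.98, against -0.29 on the brighter one. In pairs 2 and 3 the second probe set had 0.09 and -0.18, so it was not below control in every pair.
The array carries probe sets at the 5′ and the 3′ end of rat beta-actin, Gapdh and hexokinase as a check of RNA and labelling. In pair 1 the log2 ratio of gabazine over control was higher at the 5′ than at the 3′ end by 1.70, 0.50 and 0.38 for these transcripts, against -0.25, 0.04 and -0.02 in pair 2 and 0.10, -0.08 and -0.12 in pair 3. The positions of the members' probe sets along their transcripts were not used here, and the part of this difference in their values was not tested.

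**Figure D3:**
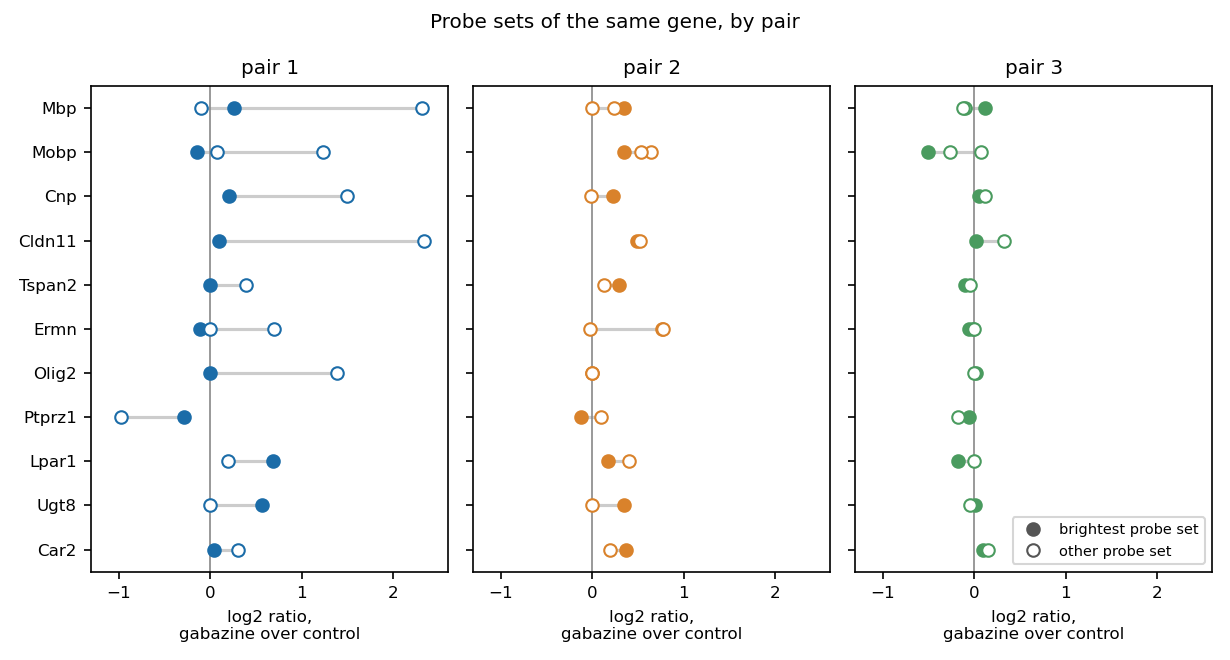
Log2 ratio of gabazine over control for each probe set of the 11 genes with more than 1, with a panel per pair, the brightest probe set filled and the others open, and a grey line over the range of a gene. The lines are longest in pair 1, where the dimmer probe sets of Cldn11 and Mbp reach 2.34 and 2.31.

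The levels of the members also differed between the replicas. The medians of the arrays were 7.89 and 7.90 in replica 2 and 8.63 to 8.71 in replicas 1 and 3, so each array was centred on its median for this comparison. Each gene was taken on its brightest probe set. The range of the 3 replica means was wider than the largest log2 ratio of any pair for 25 of the 31 genes, against 79.1% of all genes, so that the members were near the share of the whole array. Between replicas 1 and 3, whose medians were alike, the arrays overlapped for 2 of the 13 sheath genes, against 3202 of all 14218 genes. A lack of overlap was thus common over the whole array. Of the 13 sheath genes, 10 were higher on both arrays of replica 1 than on both of replica 3 and 1 was lower, and over all members 17 were higher and 7 lower, against 33.3% of all genes higher and 44.2% lower. After quantile normalization the sheath genes were 11 higher and 1 lower, and of all genes 40.7% were higher and 38.9% lower. The median difference of the sheath genes was 0.69, and that of all genes was -0.09.
Mal had centred levels of 2.35 (gabazine) and 2.35 (control) in replica 1, 1.94 and 1.49 in replica 2, and 1.29 and 0.98 in replica 3. Opalin had 0.28 (gabazine) and 0.36 (control) in replica 1, 0.15 and -0.55 in replica 2, and -0.82 and -0.84 in replica 3. Both genes, which mark mature cells, were thus highest in replica 1 and lowest in replica 3. By their replica means, the other sheath genes kept this order except Mbp, Mobp, Cldn11 and Omg. Mbp was highest in replica 2, Mobp and Cldn11 were highest in replica 3, and Omg was lowest in replica 2. For Mbp, Mobp and Cldn11 this depended on the probe set. Their other probe sets were highest in replica 1 and lowest in replica 3. Myrf had 1.82 (gabazine) and 1.88 (control) in replica 1, 1.52 and 1.38 in replica 2, and 0.93 and 0.76 in replica 3. It followed the order of Mal and Opalin. Bcas1, alone among the markers of earlier stages on their brightest probe sets, was also higher on both arrays of replica 1 than on both of replica 3. Its difference was 0.70.
Olig1 and most markers of progenitors ran the other way. Olig1 had 3.79 (gabazine) and 3.44 (control) in replica 1, 4.16 and 4.16 in replica 2, and 4.69 and 4.49 in replica 3. Its levels did not overlap between any of the replicas, and the difference between replicas 1 and 3 was -0.97. Ptprz1, Pdgfra, Enpp6 and Cspg4 were also lower on both arrays of replica 1, with differences of -0.62, -0.49, -0.64 and -0.13, and Olig2 with -0.41, while Lpar1 overlapped. The other probe sets of Olig2 and Lpar1 were higher on both arrays of replica 1. Before centring, that of Olig2 had 7.86 (gabazine) and 6.48 (control) in replica 1 against 5.90 on each array of replica 3. That of Lpar1 had 10.44 and 10.25 against 9.73 on each. On its brightest probe set Cldn11 was the sheath gene that was also lower in replica 1, at -0.49. Its dimmer probe set went the other way. Before centring it had 10.39 (gabazine) and 8.05 (control) in replica 1 against 7.74 and 7.41 in replica 3.
Other cell types differed between these replicas as well. Of 10 markers of microglia, 9 were higher in replica 1 with a median difference of 1.43, of 10 meningeal and fibroblast markers 8 were higher with 1.34, and of 8 markers of the choroid plexus 6 were higher with 0.64, while the median was -0.07 for 9 markers of astrocytes. The sources used here do not say how the arrays of a replica were processed beside the others, so that the animals and the processing cannot be told apart.

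**Figure D4:**
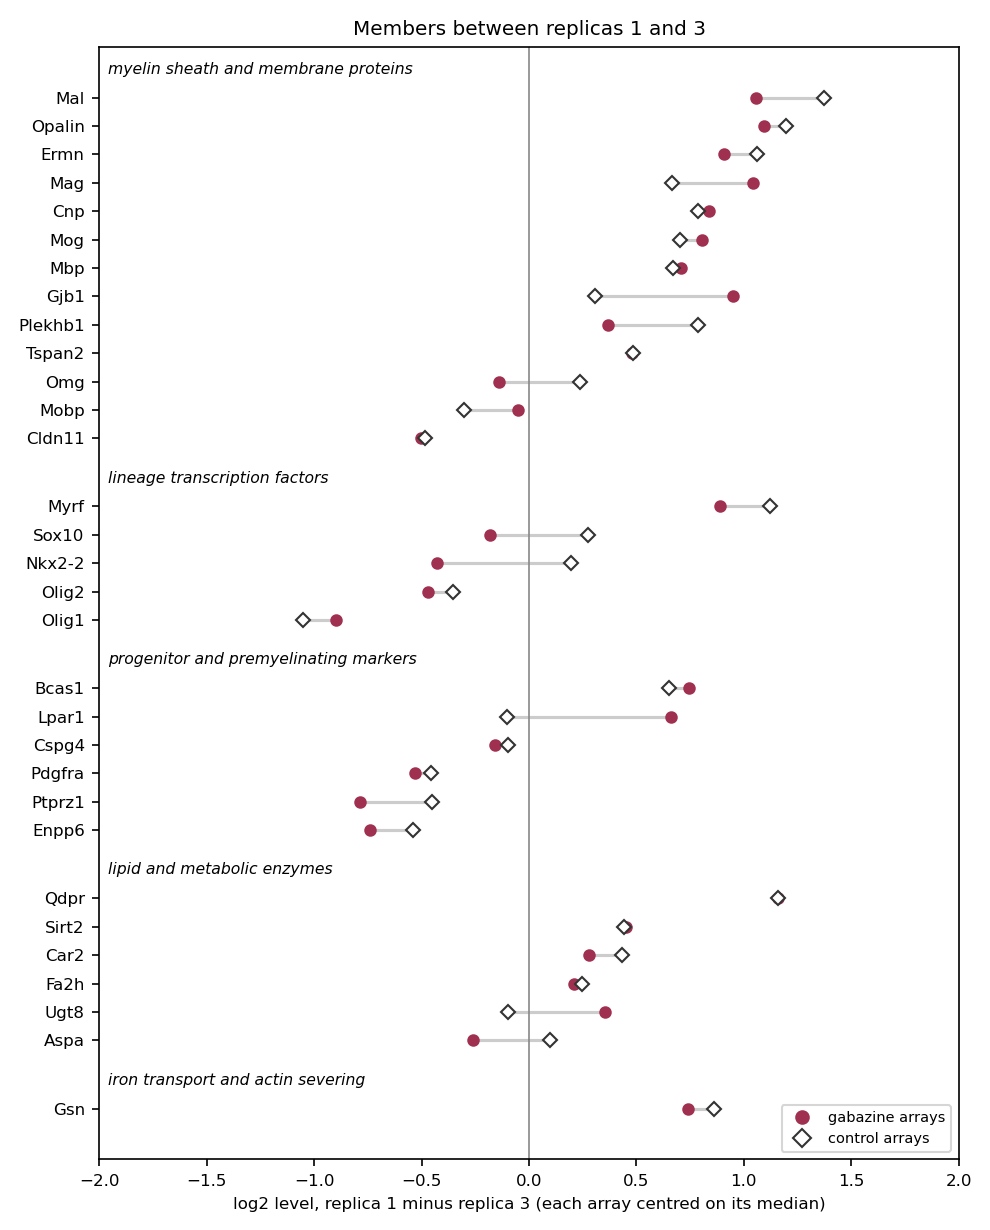
Difference in log2 level between replicas 1 and 3 for each of the 31 genes on its brightest probe set, with each array centred on its median, for the gabazine arrays (filled circles) and the control arrays (open diamonds). Most sheath genes lie to the right, up to Mal with 1.06 and 1.37, and Olig1, Pdgfra, Ptprz1 and Enpp6 lie to the left under both conditions.

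Of 34 further genes of oligodendrocytes and myelin that were measured but are not on the list, 10 were above control in all 3 pairs and 1 was below. The shares of all genes were 7.79% above and 10.8% below. At the adjusted threshold limma called 0 of the 34. An unadjusted p under 0.05 in limma was reached by 3 on the higher side and 0 on the lower side, against 2.37% and 2.84% of all genes. Their median log2 ratio was 0.06, beside 0.16 for the members, a difference that was not tested. The highest was Pllp, a proteolipid of the myelin membrane, with 0.95, 0.22 and 0.38 in pairs 1, 2 and 3, and the lowest was Evi2a with a log2 fold change of -0.17 (SE 0.10). A list on signals to the lineage from axons and other cells had 29 measured genes, and 0 passed the adjusted threshold. It holds signalling molecules together with receptors and downstream regulators. In limma, an unadjusted p under 0.05 was reached by 3 on the lower side and 0 on the higher side, against 2.84% and 2.37% of all genes. These 3 were Hes1, a repressor of differentiation downstream of Notch, Igf1, a growth factor that favours myelination, and Rtn4r, the receptor of the myelin inhibitors Nogo, Mag and Omg. Rtn4r was the lowest of this list, with log2 ratios of -0.51, -0.18 and -0.32, and Bdnf, a neurotrophin that neuronal activity induces, was the highest, with 2.37, -0.24 and 2.12. The lists of other cell types had median log2 ratios of 0.09 for astrocytes (9 genes), 0.15 for microglia (10), 0.18 for excitatory neurons (10), 0.07 for inhibitory neurons (10), -0.06 for vascular cells (9), 0.08 for the choroid plexus (8), 0.26 for meninges and fibroblasts (10) and 0.10 for Schwann cells (7), beside 0.16 for the members. The mean log2 level of the meningeal list was 8.77 to 10.76 in the gabazine samples and 8.26 to 10.31 in the controls, and that of the members was 10.24 to 11.04 and 9.99 to 10.93. In both lists the ranges of the groups overlapped. The log2 ratios of the meningeal list differed in sign between the pairs, with medians of 0.44, 0.67 and -0.30, and those of the members were 0.04, 0.24 and 0.02. The part of meningeal cells in the values of the members was not tested.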

How the data were processed

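RNA of 3 gabazine-treated and 3 untreated samples of organotypic cultures was hybridised to Affymetrix RAT2302 arrays. The deposited log2 values came from RMA, which the authors name in the methods and in their processing notes without a version. No detection measure was used, so the signal over background of dim probe sets is unknown, and precision is limited by the number of arrays. The members and gene lists were chosen with earlier results of these data known.

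Of 31099 probe sets, 20832 have 1 symbol, 436 several and 9831 none. A gene was represented by the probe set with the highest mean over the 6 arrays. Ratios were tested with limma 3.58.1 (R 4.3.3), lmFit and eBayes, with the replica as a block as the methods pair each replica with its control, which leaves 2 residual degrees of freedom, and Benjamini-Hochberg adjustment over all probe sets at 0.05. Between the arrays of a pair, the deviations from the group means had correlations of 0.794, 0.664 and 0.853. The procedure was tested on simulated data with 1 common spread for all probe sets and pairs and without ties. These data differ in both, so the simulation does not show how the fit performs on them. All members are given, with the value on every array for those past an unadjusted p of 0.05, beyond a log2 ratio of 1 in a pair, or highest or lowest in their role group. The windows and motif were chosen after the values were seen. 0 columns were left out. Alternatives were no block, each pair left out, 3 other scalings, the dimmest 40% left out, trend and robust eBayes, averaging a gene's probe sets, and tied probe sets left out.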

Additional observations from a re-analysis of the deposited data

How the results depend on the processing

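No member probe set passed the adjusted threshold under any of the 11 alternatives run. The number of member genes past an unadjusted p of 0.05, which was 3, became 0 without the replicate block, where limma called 14 probe sets of the whole table higher and 0 lower, and it was 2 to 4 under all other alternatives. The median log2 ratio of the members stayed above 0 throughout, between 0.06 without pair 2 and 0.21 when the probe sets of a gene were averaged. With median centring 9 member genes were above control in all 3 pairs, against 11 in the report and 11 with quantile and with cyclic loess normalization. Myrf, Mal, Car2 and Gsn left this count, each by pair 1, and Mag and Olig1, each with a tie before, joined it. With 1 pair left out, the genes below control in all remaining pairs numbered 1 to 5, and those above numbered 13 to 15. Without pair 2 the 5 were counted over pairs 1 and 3 alone. Counts with 1 pair left out ask for agreement of the remaining pairs only, so they are not comparable with those over 3 pairs. The share of all genes was not computed for them. Of 332 values of single genes under an alternative, 18 had the other sign than the value in the report, 10 of them with 1 pair left out, and the largest value affected was 0.23. The sign of Olig2 turned with median centring (-0.00844), quantile normalization (-0.0151) and cyclic loess normalization (-0.0154), and the cause was not tested. Counts by pair are not defined without the block and were not run there. The unknown background limits what can be said of the dimmest probe sets, such as those of Olig2.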
